A study of Mus musculus with 8 samples.

Results

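The knockout of enhancer E3 was compared with unmodified cells in mouse embryonic stem cells: 2 E3-KO samples against 2 WT samples, 4 of the 8 samples of the series. All groups are the line E14TG2a, strain 129/Ola, at passages 3 to 6. They were grown feeder-free on gelatin in medium with serum, LIF, the GSK3 inhibitor CHIR99021 and the MEK inhibitor PD0325901. The E3-KO cells carry an enhancer knockout made with CRISPR/Cas9, as do the E1-KO and E2-KO cells used below for reference. The labels used here give neither the position of the enhancers nor whether each knockout is a single clone, so the edit and the edited line cannot be told apart. Replicates are described as biological duplicates, and nothing says how they were separated, so p-values measure only the spread between these samples.

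Embryonic stem cells keep their undifferentiated state through a network of transcription factors around Pou5f1, Sox2 and Nanog. The culture medium acts on it in several ways. LIF signals through its receptor and Il6st to Stat3, which switches on Klf4, Tfcp2l1 and the feedback inhibitor Socs3. Blocking GSK3 stabilizes beta-catenin and so mimics a WNT signal, and blocking MEK silences the FGF and ERK pathway that otherwise pushes the cells towards differentiation. The study asks how associations of promoters with different enhancers bear on Sox2 in these cells.

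Total RNA was sequenced, and the deposited values are FPKM, fragments scaled to transcript length and to the number of fragments mapped in the library. Genes averaging 1 FPKM or more across all 8 samples were tested, 11271 in number, 10735 of them outside chromosome 6 and 536 on it. Differences are differences in mean log2(FPKM + 1), in which low genes appear to change less than they do, with standard errors (SE) from limma. A gene is said to rise or fall where its Benjamini-Hochberg adjusted p-value over all tested genes was under 0.05. The sums of FPKM ranged from 448266 to 524514 over the 8 samples, and the absolute depth is unknown. Depth relative to WT replicate 1, estimated roughly from the low values, was 0.787 and 1.014 in E3-KO and 0.966 in WT replicate 2. Replicates correlated at 0.985 in E3-KO and 0.994 in WT across genes, and E3-KO samples correlated with WT samples at 0.941 to 0.947. The 7 stem cell markers checked were present in all 4 samples, with a summed level of 2217 and 1924 FPKM in E3-KO and of 2453 and 2525 FPKM in WT.

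Outside chromosome 6, 1538 genes rose (14.3% of those tested) and 3124 fell (29.1%). In bulk RNA, fewer cells that express a gene and less RNA per cell cannot be told apart. The excess of falls moved with the scale. The median difference of the genes outside chromosome 6 was -0.13 as deposited and 0.00 after median-ratio scaling, which gave 2185 rises and 2205 falls. Quantile normalization gave 2238 and 2151, and scaling without the 50 most abundant genes 1807 and 2675. Called in the same direction under all 4 scales were 1514 rises (14.1%) and 1978 falls (18.4%). Changes of at least 1 on the log2 scale were found in 319 rising and 498 falling genes. The number of calls outside chromosome 6 dropped from 4662 to 2967 without WT replicate 1 and to 2530 without WT replicate 2. Below, the falls of a gene group are given as called and, in brackets, as called under all 4 scales, and each group's median is to be read against the -0.13 of all genes outside chromosome 6.

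Chromosome 6 was lower as a whole in both E3-KO samples. Over its 402 genes averaging 5 FPKM or more, the median ratio to WT relative to the other chromosomes was -0.55 in E3-KO replicate 1 and -0.56 in replicate 2 on the log2 scale. For the mean of the 2 samples it was -0.53, or 69.3% of WT when taken relative to the other chromosomes. The median ratio to WT of chromosome 6 alone, as deposited, was -0.68 on the log2 scale. The values of the other 19 chromosomes of the plot ranged from -0.08 to 0.09 over both samples. Among the 536 tested genes, 347 fell (64.7%) and 28 rose (5.22%), and 86.6% lay below their WT mean, against 60.8% elsewhere. The loss ran along the chromosome. In 4 successive blocks of 134 genes each, taken in gene order, the median difference was -0.55, -0.61, -0.71 and -0.59. Fewer copies of the chromosome, in some or all cells, and less RNA per copy cannot be told apart from expression values. Genes of chromosome 6 are therefore described apart.

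**Figure D1:**
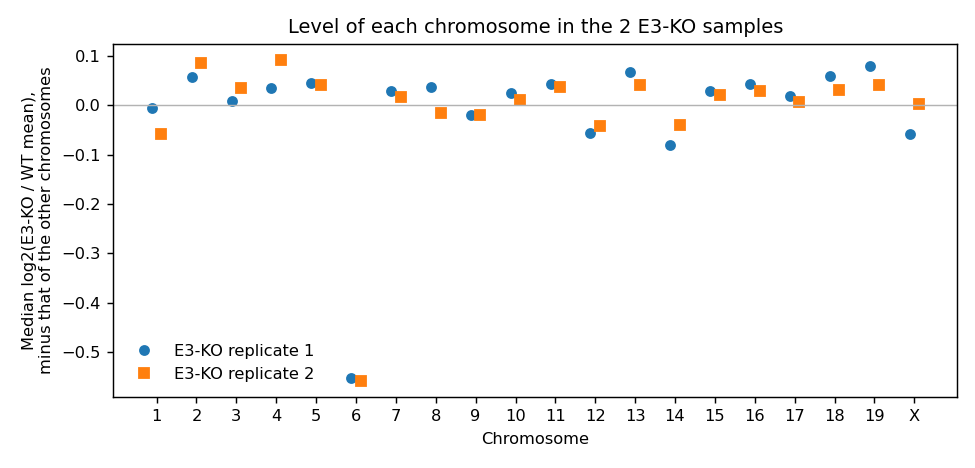
Median log2 ratio of each E3-KO sample to the WT mean per chromosome, less the median of the other chromosomes (vertical axis), for chromosomes 1 to 19 and X (horizontal axis). Circles and squares are the 2 E3-KO samples. Chromosome 6 lies at -0.55 and -0.56, and the other chromosomes range from -0.08 to 0.09.

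Some genes of chromosome 6 changed far more than the chromosome's median difference of -0.62. Ldhb, a lactate dehydrogenase subunit, stood at 224 and 227 FPKM in WT and at 17.8 and 23.6 FPKM in E3-KO, a difference of -3.40 (SE 0.14, adjusted p = 7.13e-06). The glucose transporter gene Slc2a3 fell from 479.5 and 495 to 90.8 and 94.3 FPKM, a difference of -2.38. In E1-KO, Ldhb stood at 53.4 and 51.2 FPKM and Slc2a3 at 210.2 and 211 FPKM. The difference of E3-KO from E1-KO was -1.31 for Ldhb and -1.18 for Slc2a3. Vwf, A2m and the folate enzyme gene Aldh1l1 fell by 2.46, 2.41 and 2.41. Against the trend, Arhgdib, a regulator of small GTPases, rose from 2.51 and 2.05 to 10.7 and 11.4 FPKM, and the calsyntenin gene Clstn3 from 3.62 and 3.66 to 11.6 and 10.3 FPKM. Vmn1r53 rose by 1.75 and Prrt3 by 1.28. The pluripotency gene Nanog, which also lies there, was at 467 and 450.4 FPKM in WT and at 435 and 373 FPKM in E3-KO (difference -0.19, adjusted p = 0.257). Its neighbour Dppa3, a naive-state and germline gene, fell by 0.96, below the chromosome's median.

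Sox2, the gene in the study's question, was lower in both E3-KO samples. Its level was 130.5 and 136 FPKM in WT and 97.7 and 90.96 FPKM in E3-KO (133 ± 4.05 against 94.3 ± 4.79, mean ± SD, n = 2), a fall of 0.50 on the log2 scale (SE 0.10, adjusted p = 0.00490 in limma). In E1-KO the samples stood at 58.03 and 60.3 FPKM, below both E3-KO samples (E3-KO minus E1-KO 0.66, adjusted p = 0.0022). In E2-KO they stood at 114 and 97.5 FPKM, and the difference of -0.16 did not pass the test (adjusted p = 0.33). Of the 11 tested genes of a list written for the neighbourhood of Sox2, 6 fell, all 6 under every scale. None rose, and the median was -0.50, which is the value of Sox2, itself a member. The members were not restricted by chromosome or position, so this count does not describe the neighbours of Sox2. Besides Sox2, Klhl24, a ubiquitin ligase adaptor gene, fell from 21.4 and 20.2 to 10.3 and 12.7 FPKM and Ttc14 from 26.4 and 28.1 to 17.01 and 17.1 FPKM. Each of these 3 genes lay lower in both E3-KO samples than in either WT sample.

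The pluripotency network split. Of the 25 tested core and naive factors outside chromosome 6, 10 fell (9 under all scales), 3 rose and 12 did not pass the test. The group's median was -0.10 as deposited, -0.15 under quantile normalization and 0.05 under median-ratio scaling, beside 0.01 and 0.00 for all genes outside chromosome 6 under the last 2. Among the falls, Klf4, a LIF target, went from 159 and 181 to 82.3 and 77.7 FPKM (difference -1.08, SE 0.11, adjusted p = 0.00019). Tcl1, an activator of AKT signalling, went from 80.2 and 91.02 to 32.9 and 36.4 FPKM, and the naive-state factors Esrrb and Tfcp2l1 fell by 0.63 and 0.59. The rises were the chromatin-bound factor Dppa2, from 21.5 and 20.9 to 73.1 and 65.3 FPKM, Sall4, from 103 and 112 to 146 and 166 FPKM, and Utf1. Utf1, at 49.1 and 53.5 FPKM in WT and 73.3 and 91.2 FPKM in E3-KO, was no longer called without E3-KO replicate 2 or either WT sample. Pou5f1 was at 360.0 and 382 FPKM in WT and 482 and 433 FPKM in E3-KO, a difference of 0.30 that did not pass the test (adjusted p = 0.0950) but did under median-ratio scaling and scaling without the 50 most abundant genes. Zfp42 and Klf5 differed by 0.07 and -0.10, with no call.

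Genes of the next, formative step did not move one way. Of 10 tested, 3 rose and 3 fell, in each case under every scale. Otx2, a driver of exit from the naive state, fell from 14.8 and 16.5 to 5.22 and 5.88 FPKM, and Sox4 fell from 8.56 and 6.84 to 2.62 and 1.63 FPKM. Foxd3 rose from 9.87 and 10.6 to 18.9 and 16.7 FPKM. The de novo DNA methylation machinery was higher. Dnmt3b rose from 15.3 and 17.4 to 46.5 and 50.2 FPKM, and Dnmt3l, its catalytically inactive partner, from 8.38 and 8.69 to 48.5 and 40.1 FPKM (difference 2.24, SE 0.22, adjusted p = 0.000143). Dnmt3a was at 12.7 and 24.2 FPKM in E3-KO against 7.67 and 8.59 FPKM in WT, but its rise was lost without WT replicate 1 and shrank from 1.03 to 0.59 without E3-KO replicate 2. For Dnmt3b and Dnmt3l both E3-KO samples lay far above both WT samples. Uhrf1, a maintenance methylation factor, was at 196 and 213 FPKM in WT and 188 and 223 FPKM in E3-KO, with no call. Of the 15 tested genes of the DNA methylation list outside chromosome 6, 4 rose (2 without WT replicate 1) and 3 fell (2 under all scales), and all 4 on chromosome 6 fell. Germline genes that DNA methylation is known to silence went both ways, with 5 rises and 7 falls (6 under all scales) among 21. Their median was -0.36, and 14.3% of all tested genes outside chromosome 6 rose and 29.1% fell. Tdrd12 and Tex15, of the piRNA and meiosis programmes, fell by 2.17 and 2.10, whereas Pramel6 rose from 21.9 and 22.7 to 83.3 and 53.8 FPKM. The falls numbered 4 without E3-KO replicate 2 and 3 without WT replicate 2.

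**Figure D2:**
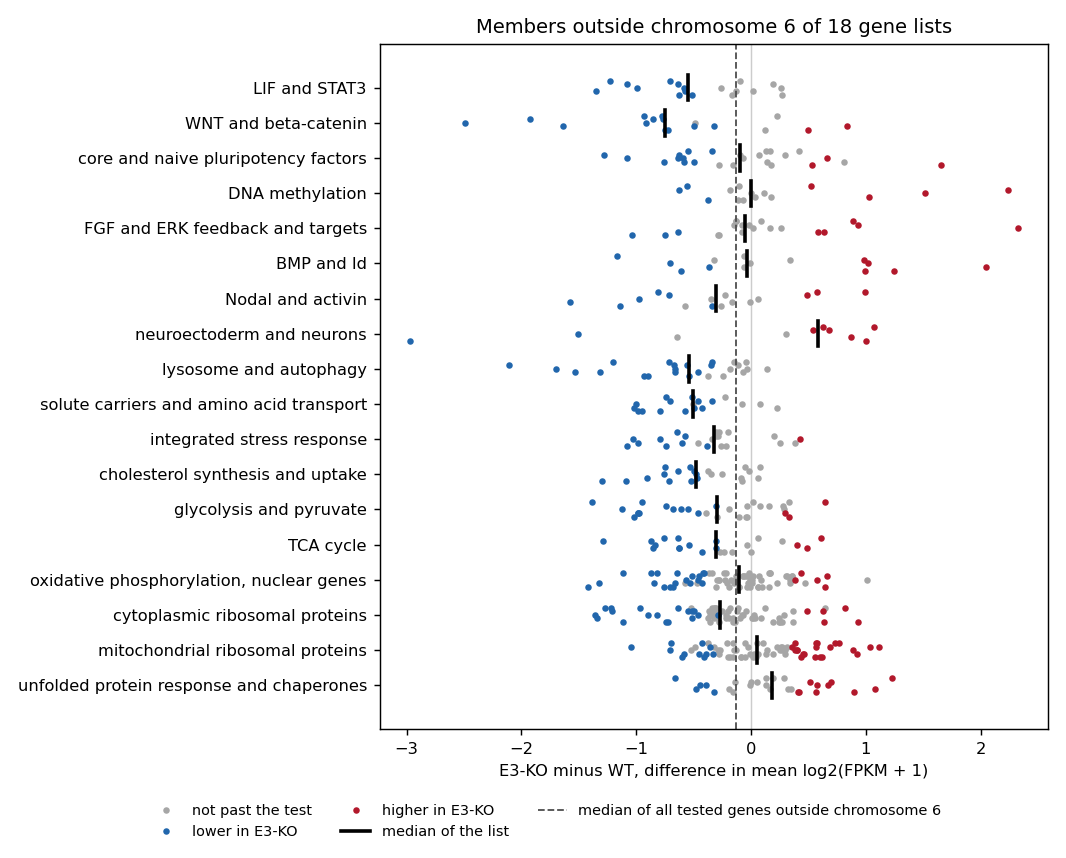
Difference between E3-KO and WT in mean log2(FPKM + 1) (horizontal axis) for the tested members outside chromosome 6 of 18 gene lists (rows). Each point is a gene, coloured where it passed the test, black bars are list medians, and the dashed line is the median of -0.13 of all tested genes outside chromosome 6. The WNT list, with a median of -0.75, and the LIF and lysosome lists, both with -0.54, lie left of that line. The neuroectoderm list lies right of it, with 0.58 over the 10 tested of its 28 genes in the files.

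The LIF and STAT3 group was lower at the receptor, at the transducer and at the targets. Of 18 tested genes, 10 fell, all 10 under every scale, and none rose (2 without E3-KO replicate 2), with a median of -0.54. Lifr, the LIF receptor, stood at 26.3 and 27.8 FPKM in WT and at 16.1 and 18.2 FPKM in E3-KO. Its signalling partner Il6st stood at 33.3 and 36.01 FPKM in WT and at 20.1 and 21.6 FPKM in E3-KO. Stat3, the transcription factor they activate, fell from 46.8 and 60.5 to 35.2 and 35.5 FPKM. Both E3-KO samples lay below both WT samples in each of the 3, but the call for Stat3 was lost without WT replicate 2. Among the targets, the kinase gene Pim1 fell from 98.1 and 110.1 to 42.7 and 37.8 FPKM (difference -1.35, SE 0.10, adjusted p = 7.12e-05), and Pim3 fell by 0.99. The feedback inhibitors Socs2 and Socs3 fell by 1.23 and 0.51, the latter not called without WT replicate 2. Jak1, the kinase bound to the receptor, was at 14.1 and 16.2 FPKM in WT and 20.2 and 16.9 FPKM in E3-KO and did not pass the test as deposited, but did under median-ratio and quantile scaling and without E3-KO replicate 2. Klf4 and Tfcp2l1 belong to this list and to the pluripotency list.

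The WNT and beta-catenin group was lower too. Of 17 tested genes outside chromosome 6, 12 fell (11 under all scales) and 2 rose, with a median of -0.75. The 2 rises, the secreted inhibitors Sfrp1 and Sfrp5, were both lost without E3-KO replicate 1 and without WT replicate 2, and Sfrp1 also without WT replicate 1. Ctnnb1, which encodes beta-catenin, fell from 221 and 225 to 139 and 122 FPKM, the receptor gene Fzd5 from 35.5 and 36.7 to 26.6 and 24.1 FPKM and the co-receptor gene Lrp5 from 14.9 and 17.1 to 8.03 and 10.03 FPKM. Tcf7, a DNA-binding partner of beta-catenin, fell by 0.85. Axin2, the classical feedback target, stood at 18.8 and 20.6 FPKM in WT and at 5.07 and 6.29 FPKM in E3-KO. The transcription factor genes Cdx1 and Sp5, also known targets, went from 16.7 and 18.03 to 3.27 and 4.42 FPKM and from 9.07 and 10.8 to 0.741 and 1.15 FPKM. For Sp5 the difference was -2.49 (SE 0.16, adjusted p = 4.39e-05), among the 15 largest falls outside chromosome 6. Ccnd1, cyclin D1, fell from 48.6 and 46.9 to 22.1 and 27.7 FPKM. On chromosome 6 the co-receptor gene Lrp6 fell by 0.95. Tcf7l1, a repressor of the pathway's targets on the same chromosome, was at 33.5 and 35.4 FPKM in WT and 40.6 and 56.6 FPKM in E3-KO, and its rise of 0.47 was lost when either WT sample was left out or E3-KO replicate 2. The core CTTTGAT, which TCF and LEF factors bind, was searched on both strands of the 250 bases before the start sites in RefSeq, build GRCm38.p6. It was held by 2.74% of the 8765 tested genes with an entry and by 3.21% of all 32851 promoters. With members on chromosome 6 counted in, 2 of the 6 falling members with an entry held it. These were Tnfrsf19 (called with every sample left out but WT replicate 2) and Sp5. None of the 4 other tested members with an entry held it. The window around the core of Sp5, the member with the largest fall, is at chr2:70474789-70474855, plus strand, with the core in capitals.
Sp5: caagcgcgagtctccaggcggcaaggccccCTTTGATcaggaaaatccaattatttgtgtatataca

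The lists of insulin-like growth factor and Notch signalling also held more falls than rises. So did all tested genes outside chromosome 6, with 29.1% falls and 14.3% rises. Of 10 IGF axis genes outside chromosome 6, 7 fell (4 under all scales, and 4 without WT replicate 2) and 2 rose (1 without E3-KO replicate 2, WT replicate 1 or WT replicate 2), with a median of -0.53. Igf2r, which clears the ligand IGF2, fell from 35.3 and 39.4 to 16.2 and 18.96 FPKM and the insulin receptor gene Insr from 6.99 and 6.18 to 3.57 and 2.68 FPKM. Igfbp4, which binds the ligands, fell from 13.5 and 14.98 to 0.755 and 2.21 FPKM. The RNA-binding protein gene Igf2bp1 rose from 120.1 and 121 to 175 and 191 FPKM. Of 12 Notch pathway genes, 4 fell (3 under all scales, and 2 without WT replicate 2) and none rose, with a median of -0.29. The share of falls in the Notch list was thus near that of all genes. The receptor gene Notch2 fell from 7.46 and 7.74 to 4.19 and 4.45 FPKM, and Notch1 differed by -0.29, with no call.

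The FGF, Nodal and BMP lists held both rises and falls. In the FGF and ERK list, 5 of 20 genes rose and 3 fell (2 under all scales), with a median of -0.05 that turned to 0.08 under median-ratio scaling. Etv1 rose from 2.21 and 2.34 to 14.7 and 16.3 FPKM (difference 2.33, SE 0.13, adjusted p = 3.16e-05) and the receptor gene Fgfr1 from 31.9 and 36.02 to 50.5 and 55.9 FPKM. The ERK inhibitors Spred1 and Il17rd fell by 1.04 and 0.75, while the ligand Fgf4 was at 62.3 and 68.2 FPKM in WT and 59.1 and 48.5 FPKM in E3-KO, called lower only where E3-KO replicate 1 was left out. The 5 rises became 3 without E3-KO replicate 1 and 3 without WT replicate 2. In the Nodal and activin list, 6 of 16 fell (5 under all scales) and 3 rose. The antagonist gene Lefty2, a Nodal target, fell from 43.5 and 42.6 to 11.6 and 16.3 FPKM, and the receptor genes Acvr1b and Acvr2b fell by 1.15 and 0.97. Inhbb, an activin subunit, rose from 2.22 and 2.17 to 5.68 and 5.05 FPKM, and Nodal differed by 0.06. The 3 rises became 1 without E3-KO replicate 1 and 1 without WT replicate 1. In the BMP list, 5 of 14 rose and 4 fell (2 under all scales). Id1, the immediate BMP target that blocks differentiation factors, rose from 3.84 and 3.02 to 18.1 and 16.5 FPKM (difference 2.05, SE 0.24, adjusted p = 0.000323). Id2 rose from 2.75 and 2.41 to 6.92 and 5.65 FPKM and the phosphatase gene Dusp9 from 15.7 and 14.5 to 38.8 and 35.7 FPKM. All 3 lay higher in both E3-KO samples than in either WT sample, and the ligand Bmp4 differed by -0.06. The 4 falls became 1 without E3-KO replicate 2 or WT replicate 1 and 2 without WT replicate 2.

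**Figure D3:**
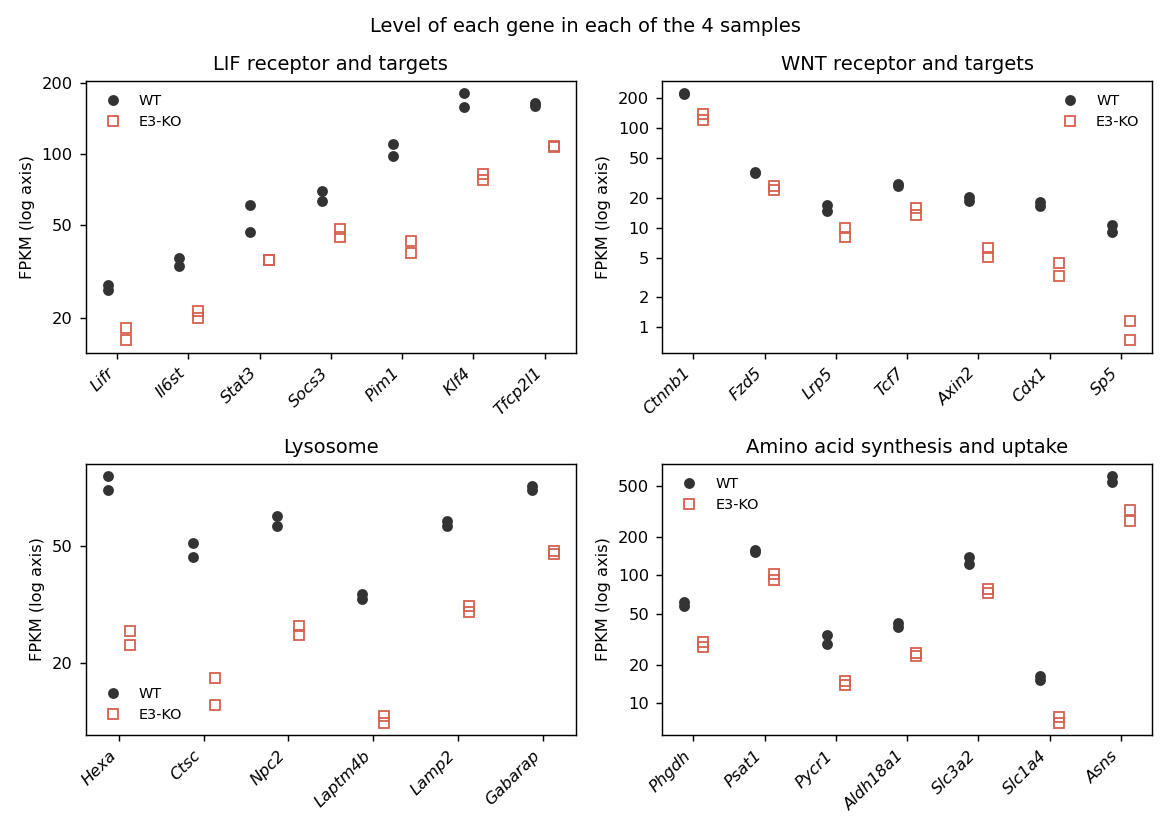
FPKM (vertical axes, log scale) of single genes in the 2 WT samples (filled circles) and the 2 E3-KO samples (open squares), in 4 groups of genes. In each of the genes shown both E3-KO samples lie below both WT samples. Asns, in the amino acid group, lies on chromosome 6, which was lower as a whole in E3-KO. Sp5 shows the widest gap, 9.07 and 10.8 against 0.741 and 1.15 FPKM.

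Genes of the lysosome, which degrades and recycles macromolecules, and of autophagy fell with no rise among them. Of its 25 tested genes outside chromosome 6, 16 fell (12 under all scales) and none rose, with a median of -0.54. Hexa, a lysosomal enzyme gene that acts in ganglioside breakdown, stood at 77.1 and 85.9 FPKM in WT and 25.8 and 23.03 FPKM in E3-KO, a difference of -1.70 (SE 0.14, adjusted p = 8.59e-05). The protease gene Ctsc fell from 45.8 and 51.03 to 14.5 and 17.9 FPKM, the cholesterol carrier Npc2 from 58.4 and 62.99 to 26.8 and 24.9 FPKM and the membrane protein gene Laptm4b from 34.3 and 32.9 to 12.6 and 13.2 FPKM. Lamp2 and the autophagy gene Gabarap fell by 0.93 and 0.72. On chromosome 6, Gabarapl1 fell from 19.4 and 18.3 to 3.496 and 4.24 FPKM, well beyond the chromosome's median, and Atg7 fell by 0.80. Tfe3, a master regulator of lysosomal genes, was at 25.6 and 29.6 FPKM in WT and 26.9 and 26.6 FPKM in E3-KO, with no call. The fall of 0.35 in its relative Tfeb was not called under any of the 3 other scales. The E-box CACGTG, which these regulators bind, was held by 4 of the 14 falling members with a promoter entry, chromosome 6 included, by 1 of the 5 other members with one, by 10.5% of all tested genes with one and by 6.02% of all promoters.

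Most tested solute carrier genes, which move amino acids, glucose and lactate across membranes, fell. None of the 18 tested solute carrier genes outside chromosome 6 rose, and 13 fell (9 under all scales, and 5 without WT replicate 2), with a median of -0.51. Slc3a2, the heavy chain shared by several amino acid exchangers, fell from 124 and 138 to 77.7 and 72.7 FPKM, and the neutral amino acid carrier Slc1a4 from 15.3 and 16.3 to 7.799 and 7.03 FPKM. The glucose and lactate carriers Slc2a1 and Slc16a1 fell by 0.99 and 0.95. The integrated stress response list holds Atf4, kinases that act above it, such as Eif2ak3, and genes induced through it when amino acids run short. Of its 22 tested genes outside chromosome 6, 9 fell (8 under all scales) and 1 rose, with a median of -0.32. Phgdh, the first enzyme of serine synthesis, fell from 57.4 and 62.2 to 30.1 and 27.6 FPKM and Psat1, the next one, from 151 and 156 to 103 and 92.7 FPKM. Aldh18a1 and Pycr1, which act in proline synthesis, fell from 39.5 and 42.1 to 23.3 and 24.6 FPKM and from 29.2 and 34.2 to 14 and 14.9 FPKM. Nupr1, a stress-induced chromatin protein gene, fell by 0.98. Atf4 itself was at 246 and 260.0 FPKM in WT and 213 and 188 FPKM in E3-KO, a difference of -0.34 with no call (adjusted p = 0.0653), though the fall passed the test under quantile normalization. Atf3 and Atf5 differed by 0.38 and 0.20, and Atf3 passed the test under the 3 other scales but not as deposited. The rise, Ddit3, was lost without E3-KO replicate 1, WT replicate 1 or WT replicate 2. On chromosome 6, Asns, asparagine synthetase, fell from 532 and 596 to 322 and 264 FPKM, Mthfd2, a mitochondrial folate enzyme gene, by 0.82, and Eif2ak3 by 0.70, against the chromosome's median of -0.62.

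The amino acid response core TGATGNA, bound by Atf4 with its partners, was searched on both strands of the same promoters. Chromosome 6 included, it was held by 7 of the 11 falling members of the stress response list with a promoter entry, by 2 of the 12 other members with one, by 7.5% of all tested genes with one and by 10.4% of all promoters. The windows of 4 falling members are printed because Asns is the classical gene of this element and the other 3 lie outside chromosome 6. Sequences are from RefSeq, build GRCm38.p6, on the gene's strand, with the core in capitals. Nupr1 and Aldh18a1 carry it on the opposite strand, so that the capitals read as its reverse complement. The windows are Asns at chr6:7693210-7693262 (minus strand), Pycr1 at chr11:120643815-120643881 (minus strand), Nupr1 at chr7:126625543-126625609 (minus strand) and Aldh18a1 at chr19:40588615-40588681 (minus strand).
Asns: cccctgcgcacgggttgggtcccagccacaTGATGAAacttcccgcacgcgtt
Pycr1: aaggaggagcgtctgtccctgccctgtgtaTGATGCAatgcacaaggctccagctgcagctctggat
Nupr1: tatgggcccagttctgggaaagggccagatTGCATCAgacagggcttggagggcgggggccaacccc
Aldh18a1: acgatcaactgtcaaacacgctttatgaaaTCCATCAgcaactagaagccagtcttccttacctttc
These matches describe the letters in each window. Mthfd2, Vldlr and Gpt2 are the other 3 falling members that held one, and the calls of Vldlr and Gpt2 were lost without E3-KO replicate 1, WT replicate 1 or WT replicate 2.

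Sterol and central carbon metabolism followed. In cholesterol synthesis and uptake, 12 of 21 genes fell (7 under all scales, and 7 without WT replicate 1) and none rose, with a median of -0.48. Stard4, a cholesterol carrier, fell from 15.3 and 15.6 to 6.99 and 4.62 FPKM and Insig1, which holds back sterol synthesis, from 27.4 and 29.5 to 13.3 and 12.4 FPKM. Cyp51, an enzyme gene of the synthesis pathway, fell by 0.91. In glycolysis, 13 of 29 genes outside chromosome 6 fell (8 under all scales, and 7 without WT replicate 2) and 3 rose (2 under all scales). The rises became 1 without E3-KO replicate 2 and 0 when either WT sample was left out. Pdk1, which inhibits pyruvate dehydrogenase, fell from 45.8 and 50.9 to 17.6 and 18.1 FPKM, and Pgk1 from 174 and 138 to 69.8 and 71.5 FPKM. Pkm, pyruvate kinase, was at 773 and 690.3 FPKM in WT and 669 and 759 FPKM in E3-KO, with no call. Ldha, a lactate dehydrogenase subunit, was at 414 and 346 FPKM in WT and 404 and 441 FPKM in E3-KO, also with no call. Of 7 glycolysis genes on chromosome 6, 6 fell, with a median of -0.88. They included Tpi1, which fell by 1.27, and Gapdh, which fell by 0.61 and was not called when either WT sample was left out. In the TCA cycle, 12 of 22 genes fell (9 under all scales) and 3 rose, with a median of -0.31. The 3 rises became 1 without WT replicate 1 and 0 without WT replicate 2. Idh2, the mitochondrial NADP-dependent isocitrate dehydrogenase, fell from 126 and 135 to 54.05 and 51.4 FPKM. Idh3g fell from 154 and 149.8 to 87.5 and 79.9 FPKM and the succinate dehydrogenase subunit Sdhb by 0.87.

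The respiratory chain stayed near the background. Of 75 nuclear oxidative phosphorylation genes outside chromosome 6, 19 fell (12 under all scales) and 5 rose, with a median of -0.10 that turned to 0.04 under median-ratio scaling. Falls numbered 11 without E3-KO replicate 2, 12 without WT replicate 1 and 9 without WT replicate 2, and rises 3 without E3-KO replicate 1, 10 without E3-KO replicate 2, 2 without WT replicate 1 and 1 without WT replicate 2. Cox7a2l, which joins respiratory complexes, fell from 128 and 145 to 55.5 and 45.4 FPKM, and Cox6b2 from 90.4 and 86.2 to 38.9 and 30.8 FPKM. Of 69 mitochondrial ribosomal protein genes, 21 rose and 11 fell (6 under all scales), with a median of 0.06. Without E3-KO replicate 1 the balance turned, to 16 rises and 18 falls. Mrpl46 rose from 19.6 and 20.2 to 43.2 and 45.1 FPKM and Mrps15 from 29.5 and 28.2 to 60.8 and 59.6 FPKM, whereas Mrps24 fell by 1.05. The rises dropped to 9 without WT replicate 1 and 11 without WT replicate 2, and the falls to 5 without E3-KO replicate 2 or WT replicate 2 and to 6 without WT replicate 1. Of 70 cytoplasmic ribosomal protein genes, 18 fell (13 under all scales) and 5 rose, with a median of -0.27. Both shares lay under the 29.1% falls and 14.3% rises of all tested genes outside chromosome 6. Rps16 fell from 1496 and 1616 to 736 and 496 FPKM and Rps15a from 1255 and 1478 to 635 and 455 FPKM. Such genes have many near-identical pseudogene copies, so reads may have been split between copies, and falls numbered 29 without E3-KO replicate 1 and 9 without WT replicate 2. The 5 rises became 2 without E3-KO replicate 1, 8 without E3-KO replicate 2 and 1 when either WT sample was left out.

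Protein folding genes were among the groups with more rises than falls. Of 28 unfolded protein response and chaperone genes outside chromosome 6, 10 rose, all under every scale, and 5 fell (2 under all scales), with a median of 0.18. The rises were 5 without WT replicate 1, and the falls were 2 without E3-KO replicate 2 or WT replicate 1 and 1 without WT replicate 2. Calr, the calcium-binding chaperone of the endoplasmic reticulum, rose from 337 and 349.8 to 683 and 779 FPKM (difference 1.08, SE 0.12, adjusted p = 0.000234). The cytosolic chaperone genes Dnaja1 and Hsph1 rose from 53.1 and 49.2 to 110.0 and 134 FPKM and from 40.1 and 40.9 to 69.4 and 83.8 FPKM. Hspa5, the reporter gene of endoplasmic reticulum stress, rose by 0.57. Redox genes split, with 6 of 29 higher and 6 lower, all 12 under every scale. The peroxidase genes Gpx1 and Prdx6 rose from 177 and 169 to 498 and 423 FPKM and from 104 and 110.3 to 291 and 219 FPKM. Gpx4, the lipid peroxidase that guards against ferroptosis, fell from 497 and 499 to 317 and 241 FPKM. The ferritin subunits moved apart, Fth1 up by 0.64 and Ftl1 down, from 141 and 181 to 104 and 88.1 FPKM. Metallothioneins Mt1 and Mt2 differed by 0.32 and 0.08, with no call, though Mt1 passed under median-ratio scaling and under scaling without the 50 most abundant genes.

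The p53 targets also went both ways, with 8 of 25 higher and 6 lower (3 under all scales). The lists of this paragraph are to be read against the 14.3% rises and 29.1% falls of all tested genes outside chromosome 6. The ubiquitin ligase gene Mdm2 rose from 54.1 and 52.9 to 85.9 and 89.7 FPKM, and the repair gene Ddb2 fell from 13.9 and 14.5 to 4.96 and 5.58 FPKM. Cdkn1a, the cell cycle inhibitor p21, fell by 0.78. Rises numbered 5 without E3-KO replicate 1 and 4 without WT replicate 1, and falls 3 without WT replicate 1. In the apoptosis list, 4 of 18 genes fell, all 4 under every scale, and 1 rose. The list's median was 0.09, and its shares of falls and rises lay under those of all genes. The initiator Casp9 fell from 9.84 and 12.04 to 3.32 and 3.83 FPKM and Apaf1, with which it forms the apoptosome, from 18.96 and 19.02 to 11.1 and 10.1 FPKM. The 4 falls became 2 without WT replicate 2, and the rise was lost when either WT sample was left out and became 3 without E3-KO replicate 2. On chromosome 6, Casp2 and Bid fell by 1.58 and 1.33. In G1 control, 8 of 20 genes fell (6 under all scales) and 2 rose, with Ccne1, cyclin E1, up from 31.04 and 29.96 to 51.4 and 73.1 FPKM and the tumour suppressor Cdkn2a down from 12.2 and 11.1 to 5.81 and 4.64 FPKM. The 2 rises became 1 without WT replicate 1 and 1 without WT replicate 2. Among replication genes, 7 of 36 fell (4 under all scales) and 5 rose, and the helicase subunit genes Mcm3 and Mcm4 differed by -0.07 and 0.05. Falls numbered 4 without WT replicate 1 and 2 without WT replicate 2. Rises numbered 3 when either E3-KO sample was left out and 2 when either WT sample was left out. Of the 45 genes for CTCF, cohesin and Mediator, 7 fell (4 under all scales) and 4 rose, both shares under those of all genes, and Ctcf differed by 0.23 (adjusted p = 0.0963), a rise that passed the test under the 3 other scales. The falls became 4 without WT replicate 2, and the rises 2 when either WT sample was left out.

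Further lists are read against the background of 14.3% rises and 29.1% falls. Of 57 chromatin remodelling and histone modification genes, 12 rose and 12 fell (5 under all scales). The rises became 5 without E3-KO replicate 2 and 4 when either WT sample was left out, and the falls 5 when either WT sample was left out. In the Polycomb list, 5 of 28 rose (2 without WT replicate 2) and 5 fell (3 under all scales, 2 without WT replicate 1, 3 without WT replicate 2). Among mitotic genes, 10 of 30 fell (7 under all scales, and 5 when either WT sample was left out) and 5 rose (2 when either WT sample was left out). Of 43 replication-dependent histone genes, 8 rose (5 without E3-KO replicate 1) and 6 fell, all 6 under every scale. In DNA repair, 9 of 27 fell (5 under all scales, and 5 without WT replicate 2) and 2 rose (1 without any 1 of E3-KO replicate 1, E3-KO replicate 2 or WT replicate 1, and 0 without WT replicate 2), while all 4 members on chromosome 6 fell. The ribosome biogenesis list had 6 rises of 28 (2 without WT replicate 1) and 2 falls (1 under all scales, 1 without E3-KO replicate 2 or WT replicate 1, 0 without WT replicate 2), with a median of 0.23. In the hypoxia response, 8 of 17 fell (5 under all scales) and 1 rose, with 3 falls left without E3-KO replicate 1, 3 without WT replicate 1 and 4 without WT replicate 2. Of 18 genes of serine, threonine and one-carbon metabolism, 9 fell (6 under all scales, and 5 without WT replicate 2) and 4 rose (2 when either WT sample was left out), and the 3 on chromosome 6 fell.

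Markers of the cytoskeleton, the matrix and other lineages were next. Of 28 cytoskeletal genes, 10 rose (6 without WT replicate 1) and 6 fell (5 under all scales). Actg1, gamma-actin, rose from 328 and 389.8 to 742 and 751 FPKM, while Actb, beta-actin, was at 1932 and 2024 FPKM in WT and 2145 and 1794 FPKM in E3-KO (difference -0.01, no call). Krt8 rose from 6.71 and 7.86 to 20.5 and 14.8 FPKM. In the matrix list, 9 of 23 fell (6 under all scales) and 4 rose (2 without WT replicate 1). Lama1, a laminin chain of the early basement membrane, fell from 28.1 and 29.4 to 9.03 and 9.71 FPKM and Fn1, fibronectin, from 360.1 and 383 to 189 and 229 FPKM, whereas Sparc rose from 87.9 and 94.2 to 231 and 199.5 FPKM. Of the 28 neuroectoderm list genes in the files, only 10 averaged 1 FPKM or more over the 8 samples and were tested. Of these 10, 6 rose and 2 fell, each under every scale, with a median of 0.58. The other members, too low to be tested, are in neither the counts nor the median. The intermediate filament genes Nefl and Nes rose from 11.6 and 13.2 to 28.98 and 25.4 FPKM and from 6.11 and 4.98 to 11.3 and 10.6 FPKM, and Stmn2 rose from 53.8 and 59.9 to 92.4 and 91.05 FPKM. Calb2, calretinin, fell from 20.5 and 18.8 to 1.23 and 2.11 FPKM and the RNA-binding protein gene Msi1 from 37.8 and 42.4 to 12.9 and 14.01 FPKM. Pax6, which defines neural progenitors, stayed under 1 FPKM in all 4 samples. Summed over 5 neuron markers in the files, E3-KO stood at 93.1 and 92.3 FPKM and WT at 55.9 and 61.2 FPKM, mostly from Stmn2, with 3 of the 5 under 1 FPKM in all 4 samples. The 6 trophectoderm markers summed to 13.6 and 10.6 FPKM in E3-KO against 7.03 and 6.85 FPKM in WT, with 3 of them under 1 FPKM. Gata3 rose from 1.48 and 1.56 to 8.86 and 4.84 FPKM. The 4 primitive endoderm markers in the files summed to 4.69 and 2.44 against 1.55 and 1.65 FPKM, with 3 under 1 FPKM. The 8 fibroblast markers summed to 5.10 and 4.68 against 3.39 and 3.28 FPKM, with 6 under 1 FPKM. The 5 blood and endothelium markers in the files summed to 61.2 and 60.5 against 54.9 and 51.5 FPKM, with 3 under 1 FPKM. The part of other cell types in these results was not tested.

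Among the genes named for the size of their fall outside chromosome 6, S100a1, a calcium-binding protein gene, had the largest. It stood at 47.2 and 43.4 FPKM in WT and at 3.43 and 2.71 FPKM in E3-KO, a difference of -3.51 (SE 0.18, adjusted p = 3.16e-05). S100a13, which lies close to it on chromosome 3, fell from 16.9 and 20.6 to 3.5 and 3.21 FPKM. Of the 17 tested genes of the S100 and calcium-binding list outside chromosome 6, 6 fell (4 under all scales) and 3 rose, among them S100a11, from 93.5 and 88.2 to 172 and 166 FPKM. Copz2, a coat protein subunit, fell from 18.4 and 19.02 to 1.53 and 2.06 FPKM. Ablim1, Acss1 and Patl2 fell by 2.58, 2.46 and 2.43. Among the largest rises, Tesc went from 2.12 and 3.32 to 22.2 and 11.9 FPKM, Tppp3 from 0.464 and 0.319 to 6.49 and 5.55 FPKM and C130073F10Rik from 22.5 and 17.96 to 113 and 86.8 FPKM. The largest rise, Gm10800, went from 3.21 and 1.78 to 156 and 138 FPKM. Gm10800 and its relative Gm10801 are predicted genes of repeated sequence, and Gm11808, Gm10123 and Rpl34-ps2 are predicted genes or pseudogenes close to others in sequence, so the reads counted for these 5 are uncertain.

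For several of the large changes, the other knockouts stood on the same side of the 2 shared WT samples as E3-KO. S100a1 was at 4.09 and 4.88 FPKM in E1-KO and 3.61 and 5.56 FPKM in E2-KO. Sp5 was at 1.18 and 1.25 FPKM in E1-KO and 0.380 and 0.368 FPKM in E2-KO. Dnmt3l was at 54.9 and 45.6 FPKM in E1-KO and 67.3 and 39.5 FPKM in E2-KO. Klf4 was at 84.25 and 87.9 FPKM in E1-KO and 68.9 and 81.2 FPKM in E2-KO. Between E3-KO and either of these knockouts, Klf4, Tcl1, Dppa2 and Otx2 did not pass the test. Sox4 passed it against both, and Foxd3, Sall4 and Dnmt3b passed it against E1-KO only. What sets E3-KO apart was therefore read from direct tests. Outside chromosome 6, the test against E1-KO called 2553 genes (23.8%) and the test against E2-KO 1432 (13.3%).

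The clearest case is Serpina3n, a secreted serine protease inhibitor known as an acute-phase gene. It was at 34.9 and 34.8 FPKM in E3-KO, against 2.49 and 3.88 FPKM in WT, 1.16 and 1.08 FPKM in E1-KO and 3.904 and 5.802 FPKM in E2-KO. The difference was 3.12 from WT (SE 0.20), 4.08 from E1-KO and 2.63 from E2-KO. Its neighbour in the same gene cluster on chromosome 12, Serpina3k, was at 6.33 and 6.54 FPKM in E3-KO and under 1 FPKM in the other 6 samples. Members of this family are similar in sequence, so the division of reads between them is uncertain. Zp3, a protein of the egg coat, stood at 11.2 and 10.3 FPKM in E3-KO, 0.687 and 1.17 FPKM in WT, 4.09 and 4.03 FPKM in E1-KO and 5.402 and 5.46 FPKM in E2-KO. Spint5, Cdrt4 and Ube2dnl1 were also highest in both E3-KO samples.

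Among the genes lowest in E3-KO, Sulf1, which trims sulfate groups from heparan sulfate, stood at 1.14 and 1.44 FPKM against 8.93 and 9.51 FPKM in WT, 10.9 and 8.54 FPKM in E1-KO and 5.93 and 5.09 FPKM in E2-KO. Gpc3, a heparan sulfate proteoglycan of the cell surface on chromosome X, stood at 2.49 and 4.22 FPKM in E3-KO and at 18.2 and 17.5 FPKM in WT. Its values in E1-KO were 9.46 and 7.99 FPKM and in E2-KO 6.06 and 6.16 FPKM. Pygb, the brain glycogen phosphorylase, fell from 16.1 and 17.2 FPKM in WT to 2.65 and 2.72 FPKM, with E1-KO at 9.501 and 8.82 and E2-KO at 4.199 and 6.26 FPKM. Ccnjl, Padi2, Susd2, Accsl and Rpl22l1 completed the 8 falls, with differences from WT between -2.21 and -1.92 for the first 4 named and of -2.28 for Rpl22l1. In all 16 genes of this kind, both E3-KO samples lay beyond all 6 other samples, which the choice of these genes favours.

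**Figure D4:**
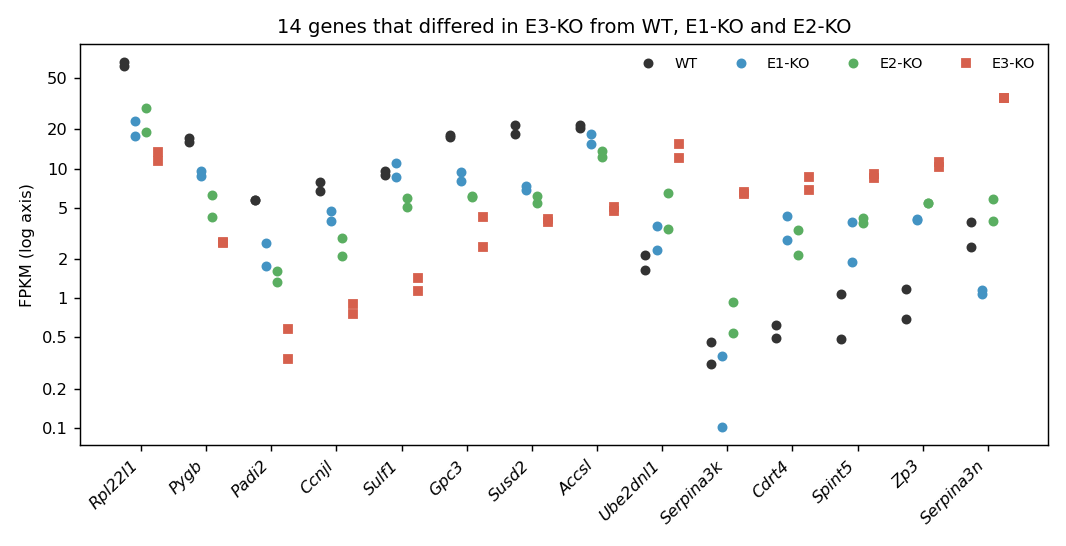
FPKM (vertical axis, log scale) in all 8 samples for 14 of the 16 genes outside chromosome 6 with the largest changes in E3-KO that also passed the direct tests against E1-KO and E2-KO. Gm10800 and Gm10801 are left out. Points are single samples, with E3-KO as squares. Serpina3n reaches 34.9 and 34.8 FPKM in E3-KO, and no other sample exceeds 5.80 FPKM.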

How the data were processed

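The authors deposited 1 table per sample with 1 FPKM value per row. Per the submitters' processing notes, the tools were Trimmomatic 0.36, TopHat2 2.0.12 and Cufflinks 2.2.1, with the genome build mm9. Libraries were made with a total RNA kit and sequenced in pairs of 150 bases, per the labels' protocols. FPKM keeps each library's composition and has no stated scaling beyond the library total. A few abundant genes can therefore shift all others. Each sample has 18774 rows for 17812 identifiers. Of the 660 identifiers with several rows, 579 were kept and 81 left out. Chromosomes and symbols came from an annotation of another build, so no gene coordinates are given. 17202 of the 17731 identifiers used had a chromosome, and 156 tested genes without one are counted outside chromosome 6.

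All 8 samples entered 1 limma-trend fit (limma 3.58.1, R 4.3.3) on log2(FPKM + 1), with the group as the only term. Genes averaging 1 FPKM or more were tested, two-sided, with Benjamini-Hochberg adjustment. Scales are FPKM as deposited, median-ratio scaling over genes outside chromosome 6, quantile normalization, and scaling to the total without the 50 highest genes. In data simulated for E3-KO against WT over 11271 genes, of 200 genes changed by a log2 value of 1, 83% were called, and 0% of those changed by 0.5. In the real data 5037 genes were called, so the Benjamini-Hochberg threshold was less strict there than in the simulation. The simulated shares therefore do not give the share of changes of these sizes that the real comparison finds. Same-numbered E3-KO and WT samples did not deviate together (correlation of deviations 0.029), so the replicate numbers were not taken to pair samples.

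The gene lists, members and rules were chosen with earlier results of these data known. Named genes are Sox2, up to the first 3 members and the 3 largest rises and falls of each list, and the 15 largest rises and falls outside chromosome 6 and 5 on it. The 8 largest each way that also differed from E1-KO and E2-KO were added. Rises and falls named by size had to be called under all 4 scales, with no overlap of the E3-KO and WT samples and a mean of at least 5 FPKM in the higher group. Other list members were chosen for their role after their values were seen. These are Aldh18a1, Apaf1, Asns, Atg7, Ctsc, Eif2ak3, Esrrb, Fzd5, Gabarap, Gapdh, Gpt2, Klf5, Laptm4b, Ldha, Lrp5, Lrp6, Mthfd2, Npc2, Pgk1, Pim3, Pkm, Sfrp5, Slc16a1, Socs3, Stat3, Stmn2, Tcf7, Tfcp2l1, Tfe3, Tfeb, Tnfrsf19, Tpi1, Uhrf1, Vldlr and Zfp42. Alternatives covered the scale, filter, pseudocount, thresholds, variance model, repeated identifiers, replicate block and leaving out each sample. Results for a few genes are not reported here.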

Additional observations from a re-analysis of the deposited data

Results flagged for a closer look

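Of the 187 genes named above, 51 differed between E3-KO and both other knockouts in the same direction, by limma's test of the difference itself, with adjusted p-values from 4.99e-05 to 0.0464 against E1-KO and from 0.000478 to 0.0496 against E2-KO. All of these comparisons share samples, and many of the genes were chosen for their change from WT. The 8 rises and 8 falls added for differing from E1-KO and E2-KO were chosen by these same tests. Their place among the 51 was therefore fixed in advance. Among all tested genes outside chromosome 6, 23.8% passed against E1-KO and 13.3% against E2-KO. The share passing both was not counted.

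In 14 genes that rose against WT, none of them on chromosome 6, E3-KO lay above both other knockouts. On the log2 scale, the difference from E1-KO was 3.16 for C130073F10Rik (2.36 from E2-KO), 0.95 for Cdrt4 (1.23 from E2-KO), 1.99 for Gm10800 (1.95 from E2-KO), 1.59 for Gm10801 (1.54 from E2-KO), 1.19 for Id2 (1.13 from E2-KO), 0.81 for Mdm2 (0.73 from E2-KO) and 2.73 for Pramel6 (1.02 from E2-KO). It was 0.97 for S100a11 (0.82 from E2-KO), 2.60 for Serpina3k (2.11 from E2-KO), 4.08 for Serpina3n (2.63 from E2-KO), 0.52 for Sparc (0.61 from E2-KO), 1.38 for Spint5 (0.98 from E2-KO), 1.89 for Ube2dnl1 (1.35 from E2-KO) and 1.21 for Zp3 (0.87 from E2-KO).

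In 20 genes outside chromosome 6 that fell against WT, E3-KO lay below both. The difference from E1-KO was -1.61 for Accsl (-1.25 from E2-KO), -0.66 for Casp9 (-0.61 from E2-KO), -0.49 for Ccnd1 (-0.62 from E2-KO), -1.53 for Ccnjl (-0.93 from E2-KO), -1.32 for Cyp51 (-1.12 from E2-KO), -0.33 for Fzd5 (-0.48 from E2-KO) and -1.18 for Gpc3 (-0.74 from E2-KO). It was -1.08 for Insig1 (-0.92 from E2-KO), -0.71 for Msi1 (-0.49 from E2-KO), -1.13 for Padi2 (-0.77 from E2-KO), -1.39 for Pdk1 (-0.61 from E2-KO), -0.67 for Phgdh (-0.49 from E2-KO), -0.51 for Pycr1 (-0.47 from E2-KO) and -1.46 for Pygb (-0.74 from E2-KO). For the rest it was -0.68 for Rpl22l1 (-0.89 from E2-KO), -0.51 for Slc16a1 (-0.65 from E2-KO), -1.31 for Sox4 (-1.06 from E2-KO), -0.66 for Spred1 (-0.62 from E2-KO), -2.22 for Sulf1 (-1.51 from E2-KO) and -0.70 for Susd2 (-0.44 from E2-KO).

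On chromosome 6, 11 genes that fell against WT lay below both other knockouts. Here the difference from E1-KO was -1.58 for A2m (-0.63 from E2-KO), -0.40 for Asns (-0.74 from E2-KO), -0.67 for Atg7 (-0.78 from E2-KO), -1.27 for Bid (-1.14 from E2-KO), -0.53 for Eif2ak3 (-0.50 from E2-KO) and -0.57 for Gabarapl1 (-0.58 from E2-KO). It was -1.31 for Ldhb (-1.13 from E2-KO), -0.84 for Lrp6 (-0.61 from E2-KO), -0.64 for Mthfd2 (-0.52 from E2-KO), -1.18 for Slc2a3 (-1.12 from E2-KO) and -1.12 for Tpi1 (-0.73 from E2-KO).

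In 6 genes the change from WT was smaller in E3-KO than in both other knockouts. The difference from E1-KO was -0.66 for Ccne1 (-0.71 from E2-KO), 0.51 for Cdkn1a (0.58 from E2-KO), 1.49 for Dppa3 (1.73 from E2-KO), 0.50 for Fn1 (0.40 from E2-KO), -1.04 for Inhbb (-0.92 from E2-KO) and -0.74 for Prrt3 (-1.14 from E2-KO). Of these, Ccne1, Inhbb and Prrt3 rose against WT in E3-KO, and Cdkn1a, Dppa3 and Fn1 fell.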

How the results depend on the processing

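The number of genes called between E3-KO and WT was 5037, of which 4662 lay outside chromosome 6 and 375 on it. With an adjusted p under 0.01 the first 2 counts fell to 3056 and 2762, and with a log2 change of at least 1 the 3 counts were 934, 817 and 117. Leaving out 1 sample gave 2810 to 4561, 2530 to 4207 and 280 to 354 calls, lowest without WT replicate 2 for the first 2. With the replicate block the counts were 4808, 4440 and 368, and Sox2 differed by -0.50 (adjusted p = 0.00855). The block changed no call among the named genes. Sox2 kept its direction and its call under the 16 alternatives run for it, which do not include the log2 change of at least 1, and ranged from -0.55 to -0.44 when 1 sample was left out, with a highest adjusted p of 0.0477.

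The relative median of chromosome 6, -0.53, was -0.56 after quantile normalization, -0.38 over all genes above 0 and -0.54 without repeated identifiers, and between -0.56 and -0.52 when 1 sample was left out. Of 163 named genes that were called, 13 lost the call under at least 1 of 15 alternatives, and none of the 163 changed direction. Of 23 that were not called, 7 passed the test under at least 1. Genes named by size had to be called under every scale, with no overlap of the E3-KO and WT samples. For them the other scales could not remove the call, and leaving out 1 sample could not reverse the direction. The count of 13 and the lack of reversals therefore do not measure the stability of genes not chosen this way. Of 1054 values of 62 list counts of at least 5, 831 stayed within 1.5 times the count as reported. Depth is unknown, and 2 samples a group limit the precision.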
